A study of Homo sapiens with 24 samples.

Results

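Transcripts of 10 chemokine and cytokine genes were followed in all groups of an RNA sequencing study of SH-SY5Y, a long-established human neuroblastoma line with adrenergic, neuron-like features. The genes were taken by name from the 26485 gene symbols of the count table: CXCL9, CXCL10, CXCL11, CX3CL1, CCL2, CSF1, IL15, IL7, TNFSF10 and TNFSF13B. All 10 had enough counts to be tested, although CXCL9, CXCL10, CXCL11 and TNFSF10 passed the filter on low counts only through the groups that received interferon. The 24 libraries fall into 8 groups of 3. Of these, 6 were taken at 24 h: no treatment, Dextran-Catechin (DC), TEPA (a polyamine, given as its pentahydrochloride salt), interferon gamma (IFN), DC with IFN, and TEPA with IFN. The remaining groups were taken at 4 h, without treatment or with copper as a chloride hydrate. DC and TEPA are copper chelators. Doses are not in the labels, and every group is the same cell line. Nothing in the labels tells whether replicates are separate cultures, so the p-values measure only the spread between these libraries, which may be technical. The design allows the response to IFN to be compared with and without each chelator.

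Interferon gamma binds a receptor of the IFNGR1 and IFNGR2 chains, which signal through the kinases JAK1 and JAK2. The signal reaches genes through GAS elements, and the induced factor IRF1 acts at ISRE elements. Among the targets are CXCL9, CXCL10 and CXCL11, which attract activated T cells and natural killer cells through the receptor CXCR3. The other members recruit or sustain leukocytes (CX3CL1, CCL2, CSF1, IL15, IL7 and TNFSF13B) or trigger death receptors (TNFSF10, also called TRAIL). In a bulk library, more cells that make a transcript and more transcript per cell cannot be told apart.

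Library totals ran from 24569980 to 35372442 counts. Levels are given as CPM, counts scaled to the size of the library. The 15 adrenergic neuroblastoma markers together reached 2640 to 3470 CPM in every library, although TH, the rate-limiting enzyme of catecholamine synthesis, had at most 2 counts in any group. Of 15 leukocyte markers, CD3E, CD3D, CD2, MS4A1 and TYROBP were at 0 in all 24 libraries. The leukocyte list summed to 5.84 to 7.15 CPM in the 24 h control and to 9.85 to 11.6 CPM with IFN. Its member CD68, a lysosomal protein of macrophages that other cells also make, rose with IFN by a log2 fold change of 3.3 (SE 0.6, edgeR adjusted p = 0.000457). PTPRC, the pan-leukocyte marker CD45, had 27 counts in the control group and 11 with IFN. Markers of fibroblasts and endothelium summed to 488 to 580 CPM in the 24 h control and 573 to 686 CPM with IFN, and those of Schwann cells to 61.1 to 68.5 and 74.4 to 80.0 CPM. The part of these marker lists in the results below was not tested.

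Per length of transcript, the members ranked as follows (CPM per kb of the longest coding transcript in GENCODE 29). In the 24 h control CCL2 was highest at a mean of 4.59 CPM per kb, and IL7 followed at 1.56 and CX3CL1 at 0.482. TNFSF13B at 0.198, CSF1 at 0.196 and IL15 at 0.124 came next and overlapped between libraries. CXCL9, CXCL10, CXCL11 and TNFSF10 were at or near 0. With IFN the CXCR3 ligands led: CXCL9 at 30.7, CXCL10 at 25.6 and CXCL11 at 23.9 CPM per kb, with ranges that overlapped. CX3CL1 at 10.5 and CSF1 at 9.43 followed and also overlapped each other. CCL2 stood at 5.53, IL7 at 4.13 and IL15 at 2.46 CPM per kb, each below the one before in every library. TNFSF10 at 0.948 and TNFSF13B at 0.414 were the lowest and overlapped. The same 3 ligands of CXCR3 also had the highest means with DC and IFN (25.7, 14.7 and 13.2 CPM per kb) and with TEPA and IFN (22.7, 11.4 and 16.6).

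**Figure D1:**
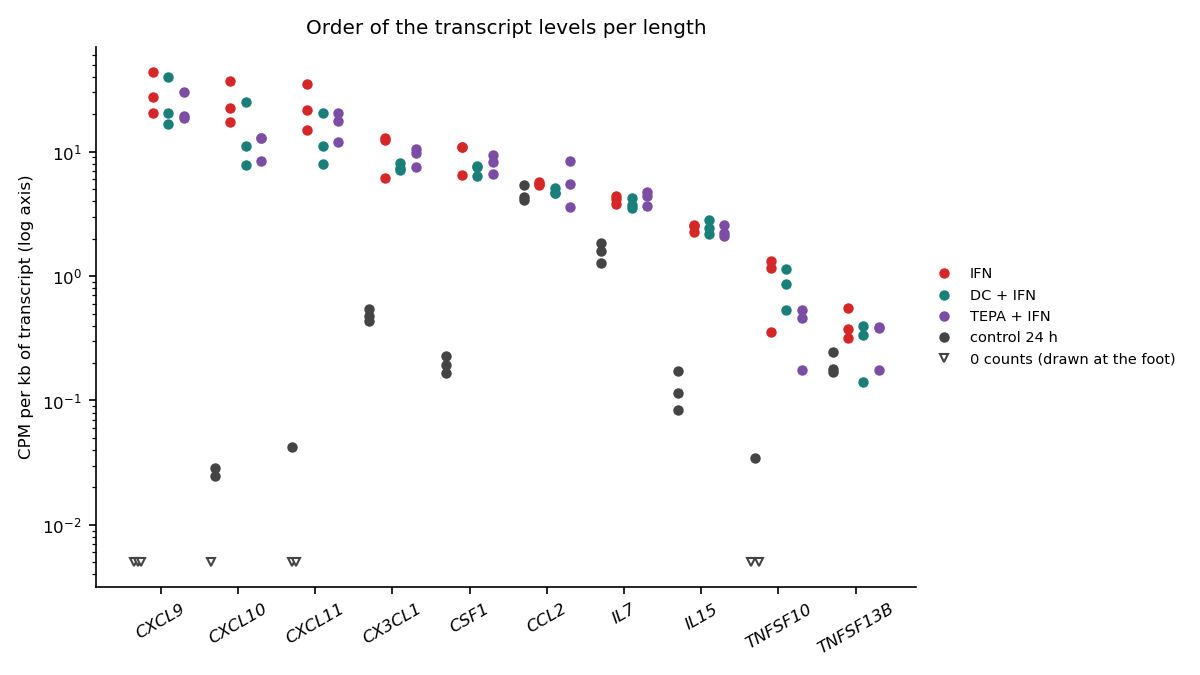
Level of each gene in CPM per kb of transcript (log axis), one point per library, in the 24 h control, IFN, DC with IFN and TEPA with IFN; open triangles mark libraries with 0 counts. With IFN the means run from 30.7 for CXCL9 down to 0.414 for TNFSF13B, while in the control CCL2 leads at 4.59.

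Promoter sequences of 5 of the 10 genes were used, from RefSeq (GRCh38.p14). None was used for CX3CL1, CCL2, CSF1, IL15 and IL7, so motifs near the start of those members were not searched. The sequences are shown because the response to IFN is read by factors that bind short motifs near the start of a gene. Each line gives the 250 bases before the transcript start, 5′ to 3′ on the strand of the gene. Capitals mark matches, on either strand, to GAS (TTCNNNGAA), to an ISRE core (GAAA, any 2 bases, GAAA) or to the NF-kB consensus.
CXCL9 (chr4:76007510-76007759, minus strand): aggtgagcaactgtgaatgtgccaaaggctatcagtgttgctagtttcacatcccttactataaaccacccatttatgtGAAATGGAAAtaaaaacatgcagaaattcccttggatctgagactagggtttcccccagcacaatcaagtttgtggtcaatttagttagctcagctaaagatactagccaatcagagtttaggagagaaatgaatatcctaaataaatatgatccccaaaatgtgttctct
CXCL10 (chr4:76023498-76023747, minus strand): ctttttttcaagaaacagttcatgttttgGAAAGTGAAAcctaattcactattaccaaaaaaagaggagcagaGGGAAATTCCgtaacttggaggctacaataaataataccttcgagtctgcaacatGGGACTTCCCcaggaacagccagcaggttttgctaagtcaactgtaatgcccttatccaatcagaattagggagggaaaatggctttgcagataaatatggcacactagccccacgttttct
CXCL11 (chr4:76036071-76036320, minus strand): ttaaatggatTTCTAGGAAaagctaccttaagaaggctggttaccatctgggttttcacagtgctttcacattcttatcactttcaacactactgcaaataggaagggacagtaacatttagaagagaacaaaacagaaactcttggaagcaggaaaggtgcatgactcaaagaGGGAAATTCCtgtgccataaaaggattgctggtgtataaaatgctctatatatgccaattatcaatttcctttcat
TNFSF10 (chr3:172523431-172523680, minus strand): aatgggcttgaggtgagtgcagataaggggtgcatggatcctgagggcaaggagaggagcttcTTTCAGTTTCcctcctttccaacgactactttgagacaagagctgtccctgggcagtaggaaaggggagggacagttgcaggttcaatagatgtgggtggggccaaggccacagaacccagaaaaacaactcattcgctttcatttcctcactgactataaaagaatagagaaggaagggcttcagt
TNFSF13B (chr13:108269468-108269717, plus strand): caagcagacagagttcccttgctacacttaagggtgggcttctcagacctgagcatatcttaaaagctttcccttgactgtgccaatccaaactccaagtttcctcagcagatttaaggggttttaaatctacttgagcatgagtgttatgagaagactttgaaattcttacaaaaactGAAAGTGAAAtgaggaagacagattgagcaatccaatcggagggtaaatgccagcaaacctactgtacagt

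CXCL9 held an ISRE core match at bases -171 to -162. In CXCL10 an ISRE core match lay at -221 to -212, with NF-kB matches at -177 to -168 and -122 to -113. The CXCL11 window had GAS at -240 to -232 and NF-kB at -76 to -67, and a second GAS match lay at 19 to 27 after the start. TNFSF10 carried an ISRE core on the opposite strand at -187 to -178. TNFSF13B has 2 annotated starts in this table, and the printed one had an ISRE core at -71 to -62. Among all 35116 windows of 300 bases, 7.66% held GAS, 3.57% held the ISRE core and 11.3% held NF-kB. A match describes letters only.

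IFN alone raised 8 of the 10 genes over the 24 h control (adjusted p under 0.05 in edgeR's quasi-likelihood test over 14654 genes), where 10% of all tested genes rose. With DC, 8 rose when IFN was added (6.16% of all genes), and with TEPA 8 rose (7.28%). In each setting the members not called were CCL2 and TNFSF13B. The median log2 fold change over the members was 5.01 with IFN alone, 4.59 with DC and 4.68 with TEPA, and that of all tested genes was 0.01, 0.01 and 0. CXCL9, CXCL10, CXCL11 and TNFSF10 lie above each median by their fitted values and by the ratios or bounds given below, so the medians do not depend on which is used. The members called had to differ where they passed the filter only through the IFN groups, as those 4 genes did. Among the other members CX3CL1, CSF1, IL15 and IL7 were called in each setting, and CCL2 and TNFSF13B were not. The members were also chosen with earlier results of these data known, so the number called is a description and not a test against all genes.

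**Figure D2:**
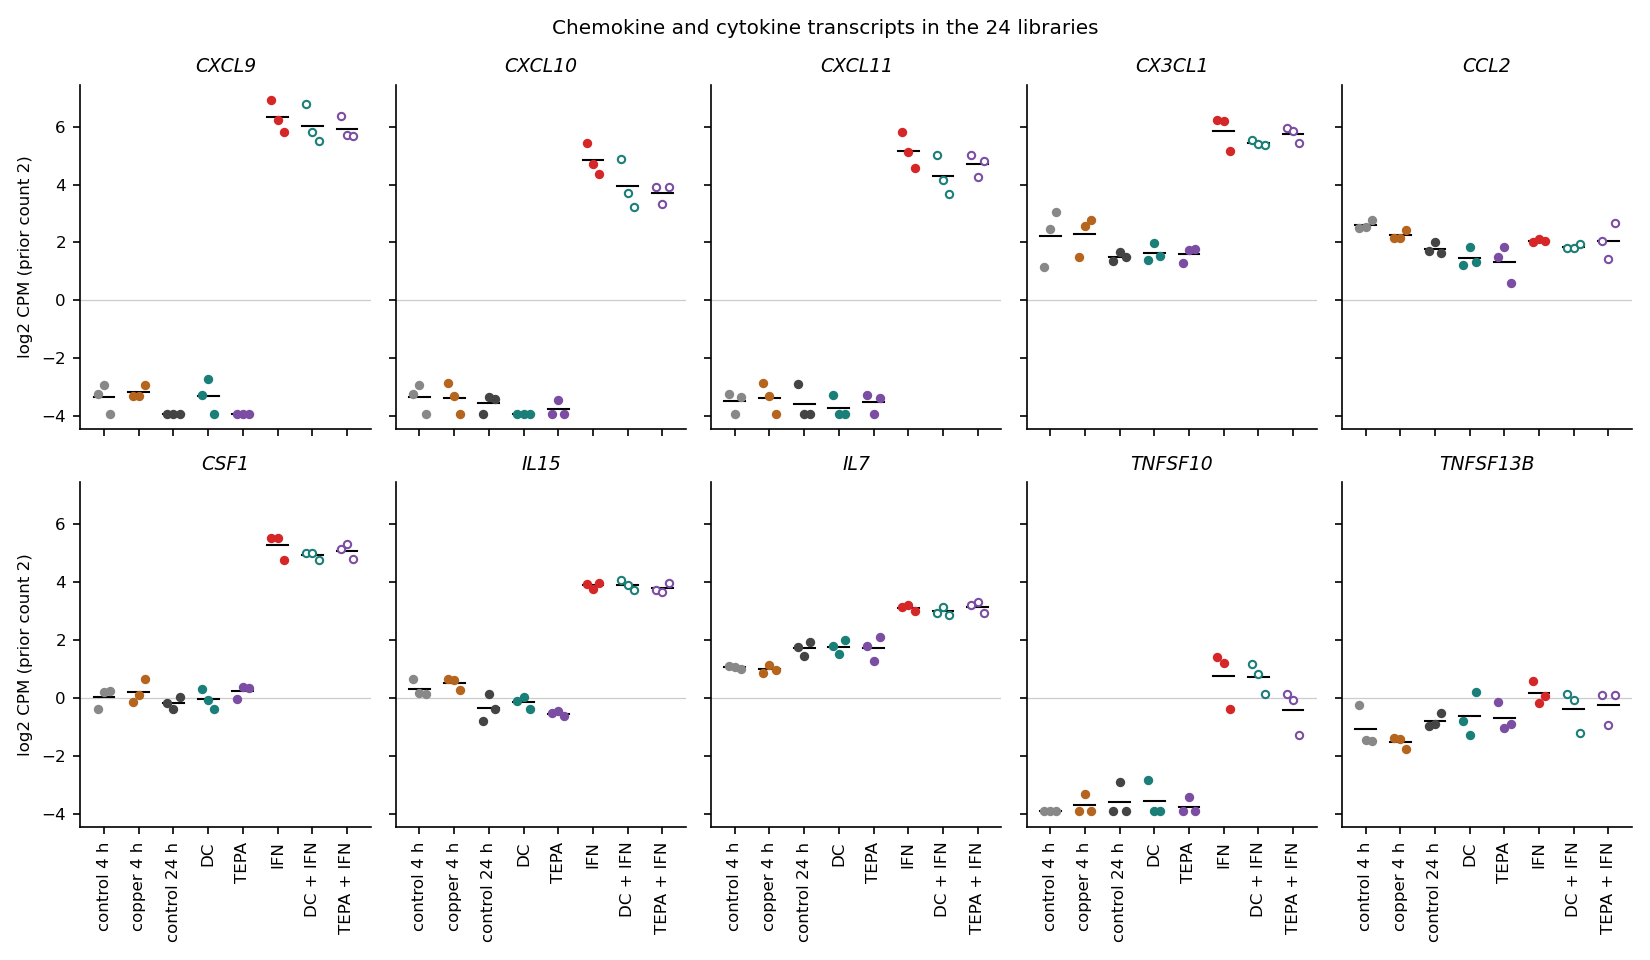
Log2 CPM (prior count 2) of the 10 genes in all 24 libraries; points are libraries, bars are group means, and the value -3.91 is 0 counts. IL15, for example, lies between 12.6 and 16.9 CPM in the libraries with IFN and at 1.52 CPM or lower without, whereas CCL2 and TNFSF13B overlap.

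CXCL9 (chromosome 4, 76001275 to 76007488, GRCh38) lies beside CXCL10 (76021117 to 76023497) and CXCL11 (76033682 to 76041415), all on the minus strand. CXCL9 stood at 121, 75.8 and 56.0 CPM in the IFN libraries, 110, 56.0 and 45.4 with DC and IFN, and 82.9, 52.8 and 50.7 with TEPA and IFN. Without IFN it had 0 counts in the control and TEPA groups and 4 counts over the DC group. The 3 groups with IFN overlapped, and replicate 1 was the highest library in each of them. CXCL9 was thus at least 2600-fold higher with IFN than in the control, taking 3 counts for the whole group as the floor, and at least 2040-fold higher with TEPA and IFN than with TEPA. With DC the ratio of counts was 1540 (95% counting interval 602 to 5660). These intervals and bounds cover counting error only.

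CXCL10 was measured at 43.5, 26.3 and 20.4 CPM with IFN, at 29.5, 13.1 and 9.27 with DC and IFN, and at 15.1, 9.93 and 15.0 with TEPA and IFN. All 3 libraries with TEPA and IFN were below all 3 with IFN alone, whereas those with DC and IFN overlapped both. The control held 2 counts, DC 0 and TEPA 1, which gives a ratio of 1400 with IFN (386 to 11500), at least 498-fold with DC, and 1330 with TEPA (238 to 52500). CXCL11 reached 56.6, 35.0 and 23.8 CPM with IFN, 32.6, 17.96 and 12.8 with DC and IFN, and 32.7, 19.1 and 28.3 with TEPA and IFN. The groups with IFN overlapped for CXCL11. Its count ratios were 1780 with IFN alone (493 to 14700), 1850 with DC (332 to 73100) and 1320 with TEPA (366 to 10900). The kit was stranded, but the strand setting of the counting is not given in the sources used here. Whether the counts of CXCL10 and CXCL11 include reads of ART3, which overlaps them on the other strand, is therefore not known. CXCL9 likewise overlaps an antisense gene.

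CX3CL1, or fractalkine, is a membrane-bound chemokine that holds and attracts cells bearing CX3CR1 and is shed by ADAM10 and ADAM17. The gene (chromosome 16, 57372458 to 57385048) gave 2.51, 3.12 and 2.75 CPM in the 24 h control and 75.2, 72.5 and 35.3 with IFN. With DC it rose from 2.58, 3.92 and 2.86 to 46.9, 42.5 and 41.5 CPM, and with TEPA from 2.39, 3.29 and 3.39 to 61.4, 57.0 and 43.5. Every library with IFN was far above every library without it, and replicate 3 of the IFN group stood well below the other two. The log2 fold change was 4.45 (SE 0.41, adjusted p = 1.17e-07) with IFN alone, 3.80 (SE 0.40) with DC and 4.15 (SE 0.40) with TEPA.

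CSF1, the growth factor of macrophages, lies on chromosome 1 (109910242 to 109930992). It rose from 0.815, 0.705 and 0.956 CPM in the control to 46.0, 45.7 and 27.4 with IFN. With DC it went from 1.16, 0.894 and 0.706 to 32.4, 31.7 and 27.1 CPM, and with TEPA from 0.919, 1.25 and 1.22 to 35.0, 39.6 and 27.8. CSF1 had the highest fitted response among the members with enough counts in every group: 5.58 (SE 0.28, adjusted p = 6.11e-12) alone, 5.04 (SE 0.27) with DC and 4.90 (SE 0.27) with TEPA. CX3CL1 and CSF1 are the GC-rich members, with transcripts of 55.4% and 59.5% GC against 34.5% to 41.0% in the others. Libraries differed along GC content: the level of GC-rich genes (over 0.6 GC) relative to GC-poor genes (under 0.4), as a log2 difference from the mean of all libraries, was 0.60, 0.90 and -0.12 in the IFN libraries and -0.97, -0.37 and -0.79 in the control. Replicate 3 of the IFN group, the lowest for both genes, was thus also the lowest of its group in this measure. With GC trends removed the response to IFN was 4.06 for CX3CL1 and 4.89 for CSF1, and both calls held. With TEPA the response of CSF1 was then 4.485 and that of IL15 4.642, so the rank of CSF1 did not hold there.

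IL15, which sustains natural killer cells and memory T cells, is on chromosome 4 (141636599 to 141733987). Its level was 0.509, 1.04 and 0.695 CPM in the control and 15.3, 13.7 and 15.4 with IFN. With DC it moved from 0.873, 0.951 and 0.706 to 16.9, 14.7 and 13.1 CPM, and with TEPA from 0.625, 0.663 and 0.580 to 13.3, 12.6 and 15.6. The 9 libraries with IFN all lay between 12.6 and 16.9 CPM, whatever the chelator, and no library without IFN passed 1.52 CPM. The log2 fold changes were 4.30 (SE 0.22, adjusted p = 1.24e-11), 4.13 (SE 0.22) and 4.46 (SE 0.23). IL7, a survival factor of lymphocytes, responded least of the genes called. It went from 3.29, 2.65 and 3.79 CPM to 8.68, 9.09 and 7.94 with IFN, with no overlap. With DC the values were 3.42, 2.80 and 3.90 before and 7.67, 8.79 and 7.28 after IFN, and with TEPA 3.38, 2.36 and 4.21 before and 9.21, 9.86 and 7.53 after. The log2 fold changes of IL7 were 1.4 (SE 0.19, adjusted p = 2.09e-05), 1.23 (SE 0.19) and 1.42 (SE 0.19). IL7 (chromosome 8, 78675743 to 78805523) overlaps ZC2HC1A on the other strand, so it carries the same uncertainty on strand.

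TNFSF10 encodes TRAIL, which triggers cell death through TNFRSF10A and TNFRSF10B (chromosome 3, 172505508 to 172523507). It had 2 counts over the control group, 2 with DC and 1 with TEPA. With IFN the libraries held 74, 63 and 22 counts, or 2.59, 2.26 and 0.699 CPM. With DC and IFN they held 53, 48 and 34 counts (2.21, 1.69 and 1.04 CPM), and with TEPA and IFN 30, 27 and 11 (1.05, 0.893 and 0.342 CPM). Every library with IFN exceeded every one without, and replicate 3 was lowest in all 3 groups with IFN. The count ratio was 84.8 (23.1 to 707) with IFN alone, 73.0 (19.8 to 609) with DC and 74.2 (12.9 to 2980) with TEPA.

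CCL2, a chemokine for monocytes, had the highest mean per kb of transcript among the members in each group without IFN, and it was not called with IFN (chromosome 17, 34255218 to 34257203). Its control libraries stood at 3.19, 3.96 and 3.04 CPM and those with IFN at 4.03, 4.24 and 4.04, a narrow gap without overlap. The log2 fold change was 0.27 (SE 0.28, 95% interval -0.32 to 0.86, adjusted p = 0.457) with IFN alone and 0.36 (SE 0.28, adjusted p = 0.566) with DC. With TEPA, CCL2 was 2.79, 3.53 and 1.45 CPM without IFN and 4.05, 2.65 and 6.29 with it, so the groups overlapped. That difference was 0.74 (SE 0.28, adjusted p = 0.0929). It passed the threshold without replicate 2 of the TEPA group (1.03, adjusted p = 0.0262) or without replicate 2 of TEPA with IFN (0.97, adjusted p = 0.0354).

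TNFSF13B, or BAFF, keeps B cells alive (chromosome 13, 108251240 to 108308484). It gave 0.442, 0.470 and 0.637 CPM in the control and 1.43, 0.827 and 0.985 with IFN, without overlap but from only 13 to 22 counts a library in the control and 23 to 41 with IFN. The log2 fold change was 1.06 (SE 0.47, 95% interval 0.08 to 2.03) and missed the threshold (adjusted p = 0.105). With GC trends removed it was 1.32 (adjusted p = 0.0112), and in a fit of the 6 libraries alone 1.05 (adjusted p = 0.025). With DC the response was 0.23 (SE 0.47, adjusted p = 0.831) and with TEPA 0.53 (SE 0.47, adjusted p = 0.452).

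**Figure D3:**
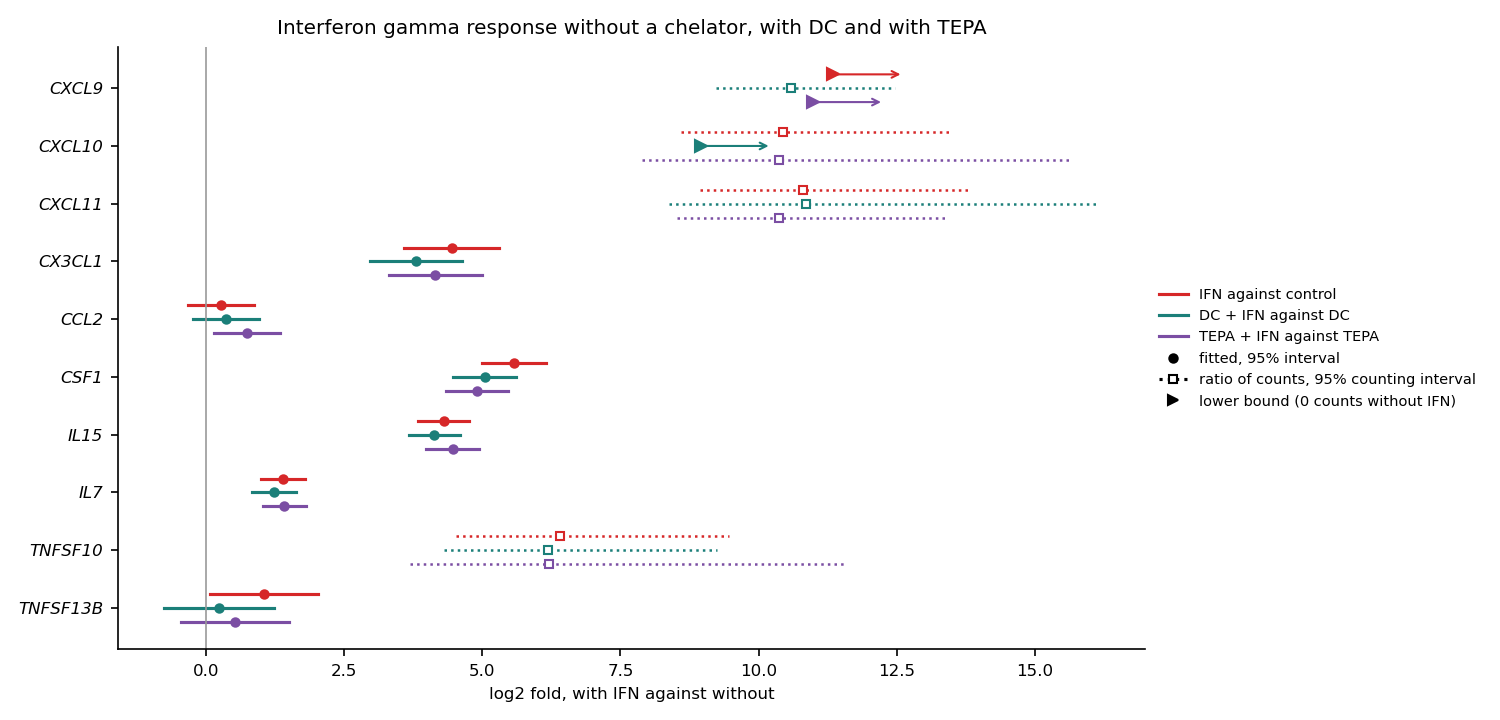
Log2 fold of each gene with IFN against without, for cells without a chelator, with DC and with TEPA; circles are fitted values with 95% intervals, squares are ratios of counts with 95% counting intervals, and arrows start at lower bounds. CSF1 reads 5.58, 5.04 and 4.90, and the intervals of CCL2 and TNFSF13B reach near or across 0.

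Whether a chelator changed the response to IFN was tested as the difference of both responses. None of the members was called for DC, and 0 of all 14654 genes were (0%; 142 at an unadjusted p under 0.05, and 2 by DESeq2). For TEPA none was called either, and again 0 of all genes were (0%; 205 at an unadjusted p under 0.05, and 0 by DESeq2). The difference for CSF1 was -0.53 (95% interval -1.27 to 0.21) with DC and -0.67 (-1.40 to 0.05) with TEPA. For CX3CL1 it was -0.65 (-1.74 to 0.44) and -0.30 (-1.39 to 0.79). With GC trends removed the difference for CSF1 was -0.05 with DC and -0.40 with TEPA, and that for CX3CL1 -0.40 and -0.16. IL15 differed by -0.17 (-0.78 to 0.44) and 0.16 (-0.45 to 0.78), and IL7 by -0.17 (-0.72 to 0.39) and 0.02 (-0.53 to 0.57). These intervals do not show that the responses were alike. For CXCL9, CXCL10, CXCL11 and TNFSF10 the difference rests on the few counts without IFN and is not given.

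The CXCR3 ligands and TNFSF10 can be compared between the chelators where IFN was present. Against IFN alone, 0 members were called with DC and IFN (0.0205% of all genes were, or 3), with 1 member at an unadjusted p under 0.05 in edgeR. TEPA and IFN also gave 0 calls (1.90% of all genes), with 2 members at an unadjusted p under 0.05, and DESeq2 called 0 members in both. Both comparisons share the 3 IFN libraries. CXCL10 was lower by a log2 fold change of -1.17 with TEPA (SE 0.40, 95% interval -2.01 to -0.33, adjusted p = 0.178) and -0.80 with DC (SE 0.40, -1.64 to 0.03, adjusted p = 0.95). With GC trends removed the TEPA value was -1.18 (adjusted p = 0.0248). CXCL11 differed by -0.87 with DC (SE 0.37, -1.65 to -0.08, adjusted p = 0.95) and by -0.53 with TEPA (SE 0.37, -1.31 to 0.25, adjusted p = 0.738). CXCL9 differed by -0.26 with DC (-0.97 to 0.45) and -0.44 with TEPA (-1.15 to 0.28). TNFSF10 differed by -1.28 with TEPA (SE 0.57, -2.49 to -0.07, adjusted p = 0.378) and -0.17 with DC (-1.33 to 0.99).

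IL15, IL7, CSF1 and CX3CL1 were compared in the same way. IL15 differed from IFN alone by 0.01 with DC (-0.38 to 0.40) and -0.10 with TEPA (-0.49 to 0.29), and IL7 by -0.12 (-0.50 to 0.27) and 0.05 (-0.34 to 0.43). CSF1 differed by -0.39 (-0.84 to 0.07) and -0.22 (-0.67 to 0.23), and CX3CL1 by -0.48 (-1.22 to 0.25) and -0.18 (-0.91 to 0.55). With GC trends removed CSF1 differed by -0.079 with DC and -0.179 with TEPA, and CX3CL1 by -0.311 and -0.145. For both chelators a halving of IL15 or IL7 lies outside the interval, and a halving of CX3CL1 lies inside it with DC. TEPA with IFN was compared directly with DC with IFN, at doses that are not in the labels. No member was called (2.72% of all genes were; 0 members at an unadjusted p under 0.05 and 0 called by DESeq2). The widest difference was that of TNFSF10, at -1.11 (SE 0.57, -2.32 to 0.10, adjusted p = 0.443).

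**Figure D4:**
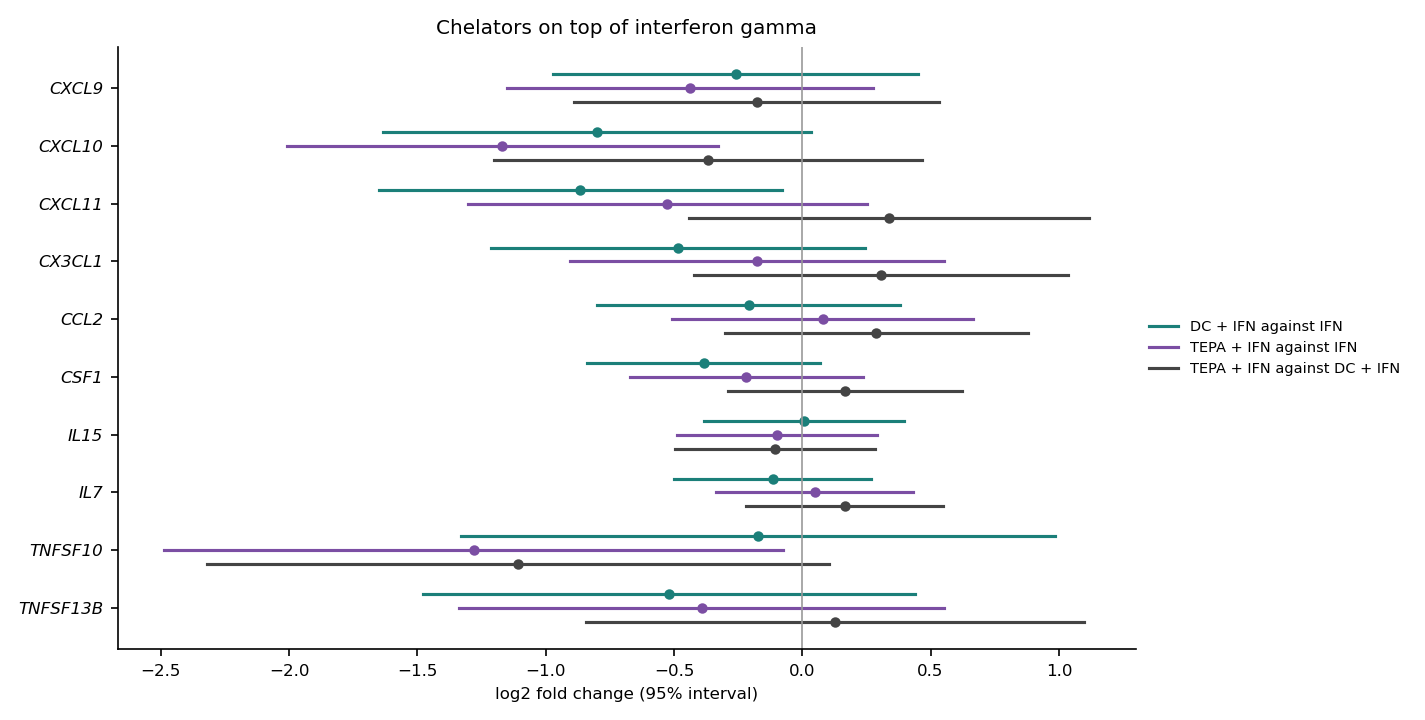
Log2 fold change with 95% interval of each gene, for DC with IFN against IFN, TEPA with IFN against IFN, and TEPA with IFN against DC with IFN. Points for CXCL10 lie at -0.80, -1.17 and -0.37, and those for IL15 at 0.01, -0.10 and -0.10; none passed the threshold.

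Without IFN the chelators left no call among the members. DC against the 24 h control gave 0 (0.0136% of all genes) and TEPA gave 0 (1.06%), with 0 members at an unadjusted p under 0.05 in either comparison and 0 called by DESeq2. CXCL9, CXCL10, CXCL11 and TNFSF10 were at or near 0 counts in these groups, with at most 4 counts in any of them. CSF1 differed by 0.15 with DC (-0.43 to 0.73) and 0.45 with TEPA (-0.11 to 1.02), and CCL2 by -0.30 (-0.89 to 0.29) and -0.39 (-0.98 to 0.21). IL15, IL7, CX3CL1 and TNFSF13B differed by between -0.26 and 0.30.

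Copper for 4 h likewise called 0 members (5.85% of all genes; 0 members at an unadjusted p under 0.05 and 0 by DESeq2). CCL2 stood at 4.415, 4.401 and 5.304 CPM with copper and 5.54, 5.66 and 6.78 in the 4 h control. Those libraries did not overlap, and the log2 fold change was -0.35 (SE 0.28, -0.93 to 0.23, adjusted p = 0.675). CX3CL1 spread widely at 4 h, with 2.18, 5.50 and 8.18 CPM in the control and 2.76, 5.89 and 6.82 with copper, lowest in replicate 1 of each. The GC measure followed the same order there, at -1.34, 0.65 and 1.38 in the control and -0.65, 0.80 and 1.35 with copper. Its part in the spread of CX3CL1 between the 4 h libraries was not tested. The difference for CX3CL1 with copper was -0.04 (-0.82 to 0.73), and -0.06 with GC trends removed. IL7, at 2.09, 2.05 and 1.92 CPM in the control and 1.77, 2.15 and 1.91 with copper, differed by -0.06 (-0.47 to 0.35).

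Untreated cells at 24 h and at 4 h differed in 1 member, IL7, which was higher at 24 h. Of all 14654 tested genes 1420 were called in either direction, and 5.90% were called higher. The IL7 libraries stood at 2.65 to 3.79 CPM at 24 h and 1.92 to 2.09 at 4 h. The log2 fold change was 0.68 (SE 0.19, adjusted p = 0.0328). That call was lost with GC trends removed (0.45, adjusted p = 0.0909), in a fit of those 6 libraries (0.65, adjusted p = 0.264), and without replicate 1 (adjusted p = 0.0936) or 3 (0.154) at 24 h or replicate 2 (0.092) or 3 (0.132) at 4 h. CCL2 was 3.04 to 3.96 CPM at 24 h and 5.54 to 6.78 at 4 h, a difference of -0.82 (SE 0.28, adjusted p = 0.0689) that DESeq2 called (adjusted p = 0.0333). With GC trends removed CCL2 (-1.04, adjusted p = 0.0232) and IL15 (-0.87, adjusted p = 0.00738) were called lower at 24 h in place of IL7. IL15 differed by -0.67 (SE 0.22, adjusted p = 0.0589) and CX3CL1 by -0.93 (SE 0.38, adjusted p = 0.11). With GC trends removed CX3CL1 differed by -0.56 (adjusted p = 0.123). Without replicate 1 of the 4 h control CX3CL1 was called (-1.34, adjusted p = 0.00723), in a fit that called 7375 of all 14814 genes.

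Most receptors of these ligands had few or no counts. Of 24 receptors and processing proteases, 6 were tested and 6 had 0 counts in every library, among them CXCR3 and CCR2. CX3CR1 had at most 7 counts in any group, CSF1R 9 and IL7R 9. IL15RA, the chain that presents IL15 to neighbouring cells, had 0 counts in every group without IFN. It reached 1.61 ± 0.57 CPM (SD, n = 3) with IFN, 1.60 ± 0.19 with DC and IFN, and 1.15 ± 0.18 with TEPA and IFN. That is at least 49.4-fold, 49.0-fold and 38.2-fold higher than without IFN.

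TNFRSF10B, a death receptor for TRAIL, was at 40.7 ± 4.70 CPM (SD, n = 3) in the control. It rose with IFN (0.55, SE 0.10, adjusted p = 0.000525), with IFN on top of DC (0.47, adjusted p = 0.00305) and on top of TEPA (0.36, adjusted p = 0.0178). The call on top of TEPA held in 10 of 15 alternatives and was lost without replicate 1 or 2 of either group (adjusted p up to 0.185). TEPA raised it too, by 1.08 without IFN (SE 0.10, adjusted p = 2.36e-05) and by 0.89 with it (adjusted p = 0.00011). TNFRSF10A, the other death receptor, rose with TEPA by 1.55 (SE 0.36, adjusted p = 0.0454), a call that held in 6 of 14 alternatives and was lost without any 1 of the control libraries or without replicate 2 or 3 of TEPA (adjusted p up to 0.302). TNFRSF10B was highest with TEPA and IFN, at 110.6 ± 10.98 CPM (SD, n = 3), the group in which TNFSF10 was the lowest of the 3 with IFN, a difference for TNFSF10 that was not called. ADAM17, the sheddase of CX3CL1, differed by -0.11 with IFN (SE 0.12, adjusted p = 0.459) from 102.5 ± 2.29 CPM (SD, n = 3), and ADAM10 by -0.34 (SE 0.16, adjusted p = 0.114).

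Of 34 other chemokines 2 had enough counts to be tested. CXCL16, a transmembrane chemokine like CX3CL1, rose with IFN by 3.54 (SE 0.40, adjusted p = 1.99e-06), with DC by 3.24 and with TEPA by 3.26. CXCL12, which attracts cells bearing CXCR4, differed by -0.10 with IFN (adjusted p = 0.807) and was lower at 24 h than at 4 h (-0.98, adjusted p = 0.037). That call held in 8 of 15 alternatives and was lost without replicate 1 or 3 at 24 h or replicate 2 or 3 at 4 h (adjusted p up to 0.357 over all alternatives). Of 74 other cytokines 21 were tested. With IFN alone 5 rose and 2 fell, with DC 3 and 1, and with TEPA 3 and 2. Of all tested genes 10%, 6.16% and 7.28% rose, and 8.80%, 3.66% and 6.89% fell. Over the alternatives the number that rose ran from 2 to 8 with IFN alone, 1 to 4 with DC and 1 to 5 with TEPA. The number that fell ran from 1 to 3, 0 to 2 and 2 to 3. The medians of all 21 were 0.28, 0.18 and 0.01. IL32 rose to 125 counts with IFN from 9 (ratio 14.8, 95% counting interval 7.56 to 33.2) and FLT3LG, a growth factor of dendritic cells, to 97 from 5 (20.7, 8.57 to 65.2). IL32 and FLT3LG passed the filter on low counts mainly through the groups with IFN, which favoured a call. IL12A rose by 1.67 (SE 0.25, adjusted p = 6.44e-05), LIF by 2.0 (adjusted p = 0.00708, called in 14 of 15 alternatives, not without replicate 2 of IFN) and IL23A by 1.89 (adjusted p = 0.00806, called in 10 of 12, not without replicate 1 or 3 of the control). KITLG, the ligand of KIT, fell by 1.0 on the log2 scale (SE 0.21, adjusted p = 0.00209), and TNFSF4 by 0.68 (adjusted p = 0.0476). The TNFSF4 call held in 9 of 15 alternatives and was lost without any 1 control library or without replicate 1 or 2 of IFN (adjusted p up to 0.187). LIF was higher with TEPA and IFN than with DC and IFN (1.82, SE 0.45, adjusted p = 0.0352). This call held in 9 of 15 alternatives and was lost without any 1 of the 6 libraries (adjusted p up to 0.177).

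Of 14 genes of IFN signalling 10 rose with IFN alone, 8 with DC and 9 with TEPA, where 10%, 6.16% and 7.28% of all tested genes rose. Over the alternatives these numbers ran from 8 to 10, 8 to 10 and 8 to 11, so they overlapped. The medians of the 14 genes were 2.02, 1.81 and 1.90. IRF1 rose by 7.32 (SE 0.31, adjusted p = 4.98e-13), 7.02 with DC and 7.31 with TEPA. SOCS1, a feedback inhibitor of the kinases, rose from 4 counts in the control to 295 with IFN (ratio 78.7, 30.4 to 291). With 7 counts with DC and 1 with TEPA, SOCS1 passed the filter on low counts only through the groups with IFN, so its rise had to be called. STAT2 was lower with TEPA and IFN than with IFN alone (-0.39, SE 0.09, adjusted p = 0.029). The call held in 10 of 15 alternatives, and it was lost without replicate 1 or 2 of IFN or replicate 1 or 3 of TEPA with IFN (adjusted p up to 0.147).

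Genes most like each member were sought among 12694 others over the 24 libraries, which share the split into libraries with and without IFN. By Pearson's r of log2 CPM, CXCL9 was closest to LAP3 (0.997) and PSME2 (0.997), and CXCL10 to GBP2 (0.996) and IDO1 (0.995). Among the nearest genes of CXCL11 was LAP3 (0.995), and among those of CX3CL1 was IFITM3 (0.990). CSF1 was closest to TAP2 (0.997) and IL15 to OAS2 (0.994). IL7 came closest to DYNC1I1 (0.987) and TNFSF10 to DENND5A (0.978). CCL2 (MRPS7, 0.838) and TNFSF13B (UHMK1, 0.857) had no gene as near.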

How the data were processed

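RNA of SH-SY5Y cells was sequenced in 24 libraries with a stranded mRNA kit, per the labels' protocols. The authors deposited a table of raw read counts, 1 row a gene symbol, which were whole numbers and not normalized. The submitters' processing notes name STAR 2.5a, RSEM 1.2.31 and hg38. The annotation release, the strand setting and any filter are not given in the sources used here. No library duplicated another.

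Computed from the counts with R 4.3.3: edgeR 4.0.16 filtered low counts (filterByExpr, minimum count of 10), leaving 14654 genes, scaled libraries by TMM and fitted a quasi-likelihood model with 1 mean per group to all 24 libraries (16 residual degrees of freedom, common biological coefficient of variation 0.207). Contrasts between groups were adjusted over all genes by Benjamini-Hochberg, and a gene was called under 0.05. Adjusted p-values are from edgeR unless DESeq2 (1.42.0) is named. Tests were run on simulated data first. Gene positions, lengths and GC content came from GENCODE 29, which matched 90.2% of symbols (93.7% of tested genes had a GC content).

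The members and the other gene lists were chosen with earlier results of these data known. Named genes are the members, up to 6 called genes of each list per comparison or the 2 most abundant, 10 genes fixed by name and the 2 most like each member. From this pool the text gives those that stand for their group; ADAM10, TH, PTPRC and the leukocyte markers at 0 were named after their values were seen. Results for some genes the rule names are not reported here. Alternatives were RLE factors, DESeq2, other filters, fewer groups, a replicate block, removal of GC trends and leaving out each library. Replicate numbers were taken to pair libraries where every same-numbered pair correlated over 0.1 in its deviations from group means: TEPA with IFN against TEPA (lowest 0.23), DC (0.15) and TEPA (0.23) against the 24 h control, and copper (0.35). The labels do not say what a number marks.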

Additional observations from a re-analysis of the deposited data

How the results depend on the processing

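CXCL9, CXCL10, CXCL11 and TNFSF10, called in each setting with IFN, passed the filter only through the IFN groups and had to differ. The calls of 8 members with IFN alone, with DC and with TEPA stayed within 7 to 9 under all alternatives, with 7 where a mean of at least 1 CPM left 8 members tested. The 9 with IFN alone added TNFSF13B, with GC trends removed, with the block added to that, and in fits of those 6 libraries with and without the block. Without any replicate they were 8, or 9 for TEPA with IFN against TEPA without replicate 2 of either group. For TEPA with IFN against IFN the call of 0 became 1 with GC trends removed, 2 with GC trends removed and the replicate block, and 4 (CXCL9, CXCL10, CXCL11 and TNFSF10, all lower) with the replicate block in those 6 libraries. Same-numbered libraries correlated there at 0.068, 0.538 and 0.559 for replicates 1, 2 and 3. The lowest is under 0.1, so by the rule used here the numbers are not taken to pair them, which does not show that pairing was absent. GC trends removed with the replicate block also gave 1 call for DC with IFN against IFN (CXCL11, adjusted p = 0.0482) and 1 for TEPA with IFN against DC with IFN (TNFSF10, adjusted p = 0.047), and added CCL2 for TEPA with IFN against TEPA (adjusted p = 0.0484). In comparisons whose numbers pair the libraries, the replicate block alone changed no member call. The 1 call between both controls became 2 with DESeq2, 2 with GC trends removed, 2 with GC trends removed and the block, 0 with only those groups, 0 with the block in those groups, and 0 to 3 without single replicates. The cause of these changes was not tested. IL7 lost its call for DC with IFN against DC under the block in those 6 libraries (adjusted p = 0.0518), with a log2 fold change of 1.24 against 1.23.

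Of 33 member results whose 95% interval left out 0, the 490 alternatives gave 460 on the same side of the threshold, 9 no longer called, 21 newly called and 0 of opposite sign. This tally includes the responses to IFN of CXCL9, CXCL10, CXCL11 and TNFSF10. Those genes passed the filter only through the IFN groups and had to differ, so that part of the tally was set in advance. Of the 63 member results whose interval held 0, 29 changed sign in at least 1 alternative and 3 were called in at least 1. Among 101 calls in the other lists, 58 held throughout and 0 reversed. TNFRSF10A with TEPA held in 6 of 14 and TNFSF4 with IFN in 9 of 15. Over all genes, the count called ran from 1707 to 7252 for IFN (2761 in the main analysis), 554 to 3607 for DC with IFN against DC (1439), 1186 to 4636 for TEPA with IFN against TEPA (2076), 0 to 1527 for TEPA (155), 1 to 7 for DC (2), 0 to 13 for DC with IFN against IFN (3), 121 to 2777 for TEPA with IFN against IFN (279), 181 to 2366 between the chelators with IFN (398), 61 to 3310 for copper (857), 0 to 7375 between the controls (1420), and up to 2 and 15 for the DC and TEPA interactions. Low counts limit TNFSF13B and, without IFN, the CXCR3 ligands and TNFSF10.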

Other observations

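A pair of further chemokines, too low to be tested and chosen after their values were seen, had counts mainly with IFN. CCL21, which guides T cells and dendritic cells to lymph nodes, had 34 counts with IFN and 0 in the control (at least 12.1-fold higher), 23 with DC and IFN and 1 with DC (ratio 24.9, 95% counting interval 4.04 to 1020), and 19 with TEPA and IFN and 0 with TEPA (at least 6.91-fold higher). The IFN libraries were uneven for CCL21, at 0.40 ± 0.37 CPM (SD, n = 3). CCL5 had 10 counts with IFN and 0 in the control, 2 with DC and IFN against 0 with DC, and 4 with TEPA and IFN against 2 with TEPA.

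The proportions of the CXCR3 ligands within a library were also compared, after the values were seen. CXCL10 counts came to 36.1, 34.7 and 36.5% of the CXCL9 counts with IFN, 26.9, 23.4 and 20.4 with DC and IFN, and 18.3, 18.8 and 29.7 with TEPA and IFN. The IFN libraries were above all 6 libraries with a chelator. CXCL11 counts came to 46.9, 46.1 and 42.5% with IFN, 29.8, 32.1 and 28.2 with DC and IFN, and 39.4, 36.1 and 55.9 with TEPA and IFN, so DC separated from IFN and TEPA did not. In two-sided exact permutation tests of the 6 comparisons, CXCL10 with either chelator against IFN alone, CXCL11 with DC against IFN alone and CXCL11 with TEPA against DC reached p = 0.1, the smallest that this test allows for 3 against 3 libraries (adjusted p = 0.15).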
